A study of Mus musculus with 6 samples.

Results

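Heat shock chaperones are described here by 10 genes of the deposited table, which lists 17854 genes. They were chosen by name, and the table holds all 10. Hspa1a, Hspa1b, Hsph1, Dnajb1, Hspb1 and Bag3 were taken as the 6 inducible members, and Hspa8, Hsp90aa1, Hspd1 and Hspe1 as the 4 constitutive ones. This division is a convention, and Hsp90aa1, for example, has a basal level in most cells and also responds to heat. The study injected mesenchymal stem cells (MSCs) of the Prrx1 lineage into injured mouse knees and asked how the cells they formed differ from those that belong to the joint. All 6 libraries are bulk RNA sequencing of male mice, with C57BL/6 given as the strain and chondrocyte as the cell type. In 3 libraries the cells were Tomato+ cells from repaired articular cartilage of mice with knee osteoarthritis after anterior cruciate ligament transection (ACLT). These cells came from injected Prrx1-lineage MSCs of inguinal white adipose tissue (iWAT), sorted from Prrx1-Cre; R26 tdTomato donors, and are called MSC-derived. The other 3 libraries hold Tomato+ cells of the joint's own cartilage, called endogenous, from Prrx1-Cre; R26 tdTomato animals matched for age and sex. The MSC-derived cells thus differ from the endogenous cells in adipose origin, joint injury and injection together, and these cannot be told apart. The injured mice were operated on as young adults. Prrx1-Cre is active in limb mesenchyme, and the Tomato label stays with all descendants of the cells that expressed it. The study counts as many mice as libraries in each group but does not say whether mice were pooled, and the p-values measure the spread between these libraries.

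Chaperones bind unfolded proteins and help them to fold, to be held in solution or to be passed on for degradation. HSP70 proteins work in a cycle driven by ATP, in which J-domain proteins such as DNAJB1 deliver the client and start ATP hydrolysis, and nucleotide exchange factors such as HSPH1 and BAG3 let the client go. Small heat shock proteins such as HSPB1 hold unfolding proteins without ATP. When unfolded proteins accumulate, heat shock factor 1 (HSF1) forms trimers that bind heat shock elements, which are inverted repeats of the letters GAA, in the promoters of inducible chaperone genes. Constitutive chaperones such as HSPA8 are made in unstressed cells, and HSPD1 and HSPE1 form the folding chamber of the mitochondrial matrix. Chondrocytes secrete large amounts of matrix protein and rely on chaperones of the endoplasmic reticulum (ER) as well as on those of the cytosol.

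The promoters of 4 members are shown as examples, Hspa1a, Hspb1 and Hspe1 with inverted repeats and Bag3 without. Whether the repeats bear on the change of a member was not tested. RefSeq (GRCm38.p6) gave promoters for 8 of the 10 members, and Hspa8 and Hsp90aa1 had no entry. The 250 bases before each annotated start were searched for a pair of repeats, GAANNTTC or TTCNNGAA, and for a triple, in which 1 more inverted repeat follows such a pair after NN. Each pair reads the same on both strands, triples were searched on both, and every triple holds overlapping pairs. In the lines that follow, capitals mark the matched letters, and the sequences run from 5′ to 3′ on the strand of the gene. Hspa1a is shown over chr17:34972157-34972306 on the minus strand, Hspb1 over chr5:135887769-135887918 on the plus strand, and Bag3 over chr7:128523433-128523582 on the plus strand, each being the 150 bases just before the start. For Hspe1, the 30 bases around the match are shown, at chr1:55088053-55088082 on the plus strand.
Hspa1a: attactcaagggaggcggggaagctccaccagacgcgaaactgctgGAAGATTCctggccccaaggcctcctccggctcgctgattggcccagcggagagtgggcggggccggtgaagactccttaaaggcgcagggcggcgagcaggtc
Hspb1: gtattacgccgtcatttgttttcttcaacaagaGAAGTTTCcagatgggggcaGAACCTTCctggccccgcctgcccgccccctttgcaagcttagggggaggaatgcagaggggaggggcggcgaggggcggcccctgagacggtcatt
Bag3: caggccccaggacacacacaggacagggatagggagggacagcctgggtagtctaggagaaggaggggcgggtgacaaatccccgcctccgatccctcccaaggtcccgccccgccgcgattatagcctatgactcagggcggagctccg
Hspe1: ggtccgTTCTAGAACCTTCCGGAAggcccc

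A pair was found before 6 of the 8 members with a promoter, and 14.5% of all 27025 genes with a RefSeq promoter had one. In Hspa1a it was GAAGATTC, which began 104 bases before the start, and in Hsph1 it was TTCTCGAA, 33 bases before the first of its annotated starts. Hspb1 held GAAGTTTC at 117 and GAACCTTC at 97 bases. A triple was found only for Hspd1 and Hspe1 among these 8, whereas 0.514% of all genes with a promoter had one. Both were taken as constitutive members, so the division into classes does not follow this pattern. Hspd1 and Hspe1 lie head to head, and their triples are the same DNA read on opposite strands: in Hspe1 the matches TTCTAGAACCTTC and GAACCTTCCGGAA began 89 and 84 bases before the start. Dnajb1 and Bag3 held neither pattern in these windows, which says only that these letters do not occur there. Over 250 bases the promoters of the duplicated genes Hspa1a and Hspa1b differed by the substitutions C44T, T47C and T249G from Hspa1a to Hspa1b, counted from 1 at the 5′ end of the window.

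Total expected counts were between 22060628 and 24881796 per library, so that 3 counts, taken as the floor, correspond to 0.121 to 0.136 counts per 1000000 (CPM). The floor covers counting error only. Endogenous replicate 1 stood apart, with 3459 genes at 0 counts where endogenous replicates 2 and 3 had 1338 and 1395. edgeR's common biological coefficient of variation was 6.77% over the MSC-derived libraries, 35.3% over the endogenous libraries and 7.47% over endogenous replicates 2 and 3. The label chondrocyte was checked against cell type markers, and all 12 chondrocyte markers were lower in the MSC-derived libraries, in which their summed level was 2419 to 2495 transcripts per 1000000 (TPM) against 26489 to 29753 TPM in the endogenous ones. Col2a1, which encodes the main collagen of cartilage, had 121 ± 4.32 TPM in the MSC-derived and 12968 ± 945 TPM in the endogenous libraries (SD, n = 3). In contrast, all 10 common leukocyte markers were higher in the MSC-derived libraries, with summed levels of 7442 to 7550 TPM against 630.4 to 687 TPM, and Ptprc, which encodes the pan-leukocyte antigen CD45, had 93.7 ± 3.03 against 7.12 ± 2.99 TPM (SD, n = 3). All 12 macrophage, 10 neutrophil and 10 erythroid markers were higher as well, and the neutrophil markers summed to 147109 to 155802 TPM against 8180 to 11527 TPM. The erythroid markers summed to 79733 to 82011 against 18289 to 24703 TPM, and the macrophage markers to 14478 to 14811 against 123 to 190 TPM. Each of these sums lay far above that of the chondrocyte markers in the MSC-derived libraries. The markers thus did not bear out the label chondrocyte for these libraries as a whole, and the names of the groups follow the study. None of the markers in these 5 lists was at 0 in a whole group. The endogenous libraries also held osteoblast markers at 60747 to 83917 TPM in sum and fibroblast and stromal markers at 35287 to 45034 TPM. Both sums were above that of the chondrocyte markers in the same libraries. Col1a1 counts in both lists, so these sums are not independent of each other. The part of these cell types in the chaperone levels was not tested, and in bulk RNA fewer cells of a type and less RNA per cell cannot be told apart.

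All 6 inducible chaperones were lower in MSC-derived than in endogenous Tomato+ cells, whereas of the 4 constitutive chaperones 2 were lower, 1 was higher and 1 was not called. Bag3 fell most, to 13.9% of its mean endogenous level in CPM, followed by Hspb1 with 19.4% and Dnajb1 with 21.9%. Of the constitutive members, Hsp90aa1 fell to 55.1% of its endogenous level, beside 57.6% for the inducible Hspa1a. This order turned over without endogenous replicate 1, with log2 fold changes of -0.75 for Hsp90aa1 and -0.91 for Hspa1a. Hspa8 fell to 81.6%, Hspe1 rose by a small amount and Hspd1 did not pass the test. In all, 8 members were called lower, 1 higher and 1 was not called by edgeR's quasi-likelihood test at a Benjamini-Hochberg adjusted p of 0.05 or less over the 14289 genes tested, and all 10 members passed its expression filter. Over all genes tested, 61.6% were called, 31.3% higher and 30.3% lower, so that 1 call by itself says little about a member. The median log2 fold change of MSC-derived over endogenous cells was -1.75 for the inducible members, ranging from -2.84 to -0.80, and -0.06 for the constitutive members, ranging from -0.86 to 0.34, against 0.05 over all genes tested. Of all genes tested, 8.8% had a lower log2 fold change than Bag3, 11.5% than Hspb1, 12.5% than Dnajb1 and 27.1% than Hspa1a. In CPM the groups did not overlap for any member but Hspd1, and 72.4% of all genes tested did not overlap. Without endogenous replicate 1, the counts of members were again 8 lower and 1 higher.

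**Figure D1:**
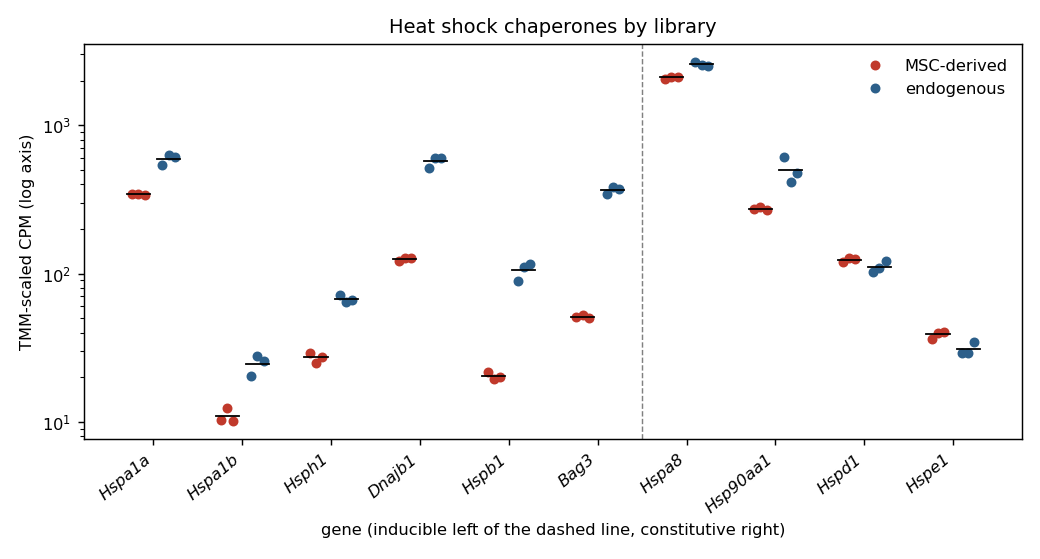
Level of each chaperone in every library, as counts per 1000000 scaled with edgeR's TMM method (log axis), for MSC-derived (red) and endogenous (blue) cells. Points are the 3 libraries of a group and black bars their mean; the endogenous points lie above the MSC-derived ones for the 6 inducible members, Hspa8 and Hsp90aa1, and below or mixed with them for Hspe1 and Hspd1.

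Bag3 encodes a co-chaperone that joins HSP70 to small heat shock proteins and directs clients to autophagy. It had 50.6, 52.4 and 49.98 CPM in the MSC-derived libraries and 345, 383 and 369.6 CPM in the endogenous ones. The lowest endogenous library therefore lay far above the highest MSC-derived one. Bag3 was 7.18-fold lower by the ratio of mean CPM, and its log2 fold change was -2.84 (standard error, SE, 0.07, adjusted p = 1.27e-07). No 100-base stretch of its transcript was shared with another gene in the GENCODE mouse transcripts.

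Dnajb1, the main J-domain partner of inducible HSP70 in the cytosol and nucleus, had 121, 128 and 126 CPM in the MSC-derived libraries and 513, 597 and 601 CPM in the endogenous ones. The 3 MSC-derived libraries lay within a few percent of each other, and all endogenous libraries were more than 4 times as high. The log2 fold change was -2.19 (SE 0.08, adjusted p = 5.80e-07). Its transcript shared no 100-base stretch with another gene either. Hspb1, a small heat shock protein also known as HSP25 in mice, had 21.6, 19.4 and 20.2 CPM in the MSC-derived libraries compared with 88.8, 111 and 116 CPM in the endogenous ones. Endogenous replicate 1 was the lowest of its group for Hspb1 and still stood well above every MSC-derived library. Hspb1 fell by 2.37 in log2 units (SE 0.13, adjusted p = 3.10e-06). Of its transcript, 42.7% of the 100-base stretches also occur in Hsp25-ps1, so reads from these stretches cannot be set apart from that copy.

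Hsph1 encodes HSP110, which exchanges nucleotides on HSP70 and helps to dissolve aggregates. It had 28.9, 24.98 and 27.5 CPM in the MSC-derived libraries and 71.4, 64.6 and 65.9 CPM in the endogenous ones, with no overlap. The fall was smaller than those of Bag3, Hspb1 and Dnajb1, with a log2 fold change of -1.31 (SE 0.10, adjusted p = 2.05e-05). Among the inducible members, the 95% intervals of Hspb1 and Dnajb1 overlapped, and so did those of Hsph1 and Hspa1b and those of Hspa1b and Hspa1a. The interval of Bag3, -3.02 to -2.67, ended just short of that of Hspb1, -2.66 to -2.07.

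Hspa1a and Hspa1b encode the stress-inducible HSP70, and their proteins are nearly the same. Hspa1a was by far the more abundant of the pair in the table, with 344, 342 and 339 CPM in the MSC-derived libraries and 541, 628 and 609.8 CPM in the endogenous ones. Although it is the textbook heat shock gene, it showed the smallest change of the inducible members, with a log2 fold change of -0.80 (SE 0.07, adjusted p = 5.62e-05). Hspa1b had 10.3, 12.3 and 10.1 CPM in the MSC-derived libraries and 20.3, 27.8 and 25.6 CPM in the endogenous ones. Its log2 fold change was -1.17 (SE 0.17, adjusted p = 0.000729), and the groups did not overlap. Their transcripts share 47.1% of the 100-base stretches of Hspa1a and 49.9% of those of Hspa1b, so the division of reads between them is an estimate. The sum of both genes was 9053, 8626 and 7978 counts against 12748, 14829 and 15183 counts, and fell by 0.81 in log2 units (SE 0.07, adjusted p = 5.66e-05). Hspa1b held 3.09% of the summed counts in the MSC-derived and 3.96% in the endogenous libraries.

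Hspa8, the constitutive HSP70 that also uncoats clathrin vesicles, was the most abundant member in both groups. It had 2064, 2126 and 2126 CPM in the MSC-derived libraries and 2672, 2546 and 2519 CPM in the endogenous ones. The groups did not overlap, but the difference was small, with MSC-derived cells at 81.6% of the endogenous mean and a log2 fold change of -0.29 (SE 0.05, adjusted p = 0.00217). This call was lost when FPKM were tested with limma, with log2 fold changes of -0.17 on log2(FPKM + 1) (adjusted p = 0.0684) and on log2(FPKM + 0.1) (adjusted p = 0.0645). Of the Hspa8 transcript, 63.4% of the 100-base stretches occur in transcripts of 9 other genes. Counted over all other genes, this share was 56.5% for Hspa1a, 47.5% for Hsp90aa1, 26.9% for Hspd1 and 22.4% for Hspe1.

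Hsp90aa1 encodes the more heat-responsive of the cytosolic HSP90 proteins. Its levels were 272, 282 and 269 CPM in the MSC-derived libraries and 607, 411 and 474 CPM in the endogenous ones. The endogenous libraries were spread widely, with a coefficient of variation of 20.1%, the largest of any member, and replicate 1 was the highest of them. Hsp90aa1 fell by 0.86 in log2 units (SE 0.14, adjusted p = 0.00112), and by 0.75 without endogenous replicate 1 (adjusted p = 5.43e-11). Hsp90ab1, the constitutive HSP90, is not among the members and had 951 ± 3.53 against 1174 ± 34.7 CPM (SD, n = 3), with a log2 fold change of -0.30 (SE 0.05, adjusted p = 0.00206). Within libraries, Hsp90aa1 stood at 24.97, 25.8 and 24.6 TPM per 100 TPM of Hsp90ab1 in MSC-derived cells and at 43.8, 31.4 and 35.2 in endogenous cells. Hsp90aa1 thus made up less of the pair in every MSC-derived library.

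The mitochondrial chaperonin genes did not follow the inducible members. Hspd1, which encodes HSP60, had 119.6, 127 and 126 CPM in the MSC-derived libraries and 102, 108 and 121 CPM in the endogenous ones, and the groups overlapped. Its log2 fold change was 0.17 (95% interval -0.04 to 0.37, adjusted p = 0.131). Hspe1, which encodes the HSP10 lid of the same chamber, had 36.0, 39.997 and 40.5 CPM against 28.9, 29.0 and 34.4 CPM, without overlap. It rose by 0.34 on the log2 scale (95% interval 0.06 to 0.61, adjusted p = 0.0393), but the direction of both genes depends on the scaling: in limma on log2(TPM + 1) the log2 fold changes were -0.27 for Hspd1 (adjusted p = 0.0158) and -0.09 for Hspe1 (adjusted p = 0.395). On that scale the median of all genes tested moved to -0.28, and relative to this median Hspd1 stood at 0.01 and Hspe1 at 0.19. The call of Hspe1 was lost when any MSC-derived library or endogenous replicate 2 was left out, with adjusted p between 0.0585 and 0.173.

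**Figure D2:**
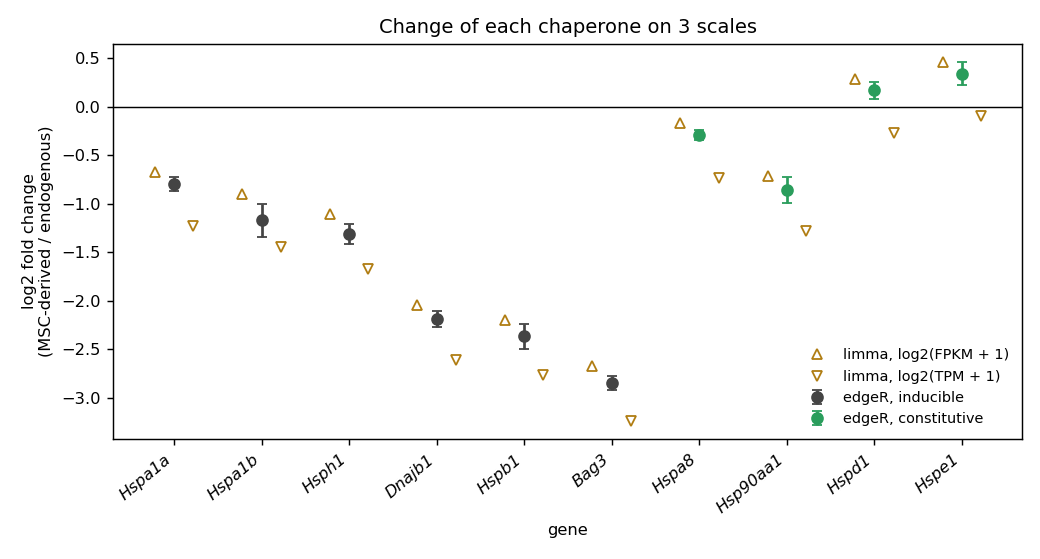
Log2 fold change of MSC-derived over endogenous cells for each chaperone on 3 scales: edgeR on counts (filled circles, with bars of 1 standard error), limma on log2(FPKM + 1) (open upward triangles) and limma on log2(TPM + 1) (open downward triangles). The 6 inducible members lie between -2.84 and -0.80 by edgeR and below 0 on all 3 scales, whereas Hspd1 and Hspe1 lie above 0 on counts and FPKM and below 0 on TPM.

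The call lower held for each of the 6 inducible members in each of the 17 alternatives computed for single members. A comparison within each library does not depend on how libraries are scaled to each other, so the inducible members were also set against the constitutive ones there. The 6 inducible genes together made up 18.4, 17.7 and 17.6 TPM per 100 TPM of the 4 constitutive genes in the MSC-derived libraries. In the endogenous libraries the same measure was 39.9, 50.3 and 49.2. Endogenous replicate 1 was the lowest of its group and still more than 2 times the highest MSC-derived library, and the group means differed 2.60-fold (17.9 ± 0.434 against 46.5 ± 5.72, SD, n = 3).

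Per 100 TPM of Hspa8, Bag3 stood at 1.93 ± 0.0494 in the MSC-derived and 11.3 ± 0.896 in the endogenous libraries, a 5.87-fold difference (SD, n = 3). The same ratio differed 4.21-fold for Hspb1 and 3.73-fold for Dnajb1, and 2.03-fold for Hsph1. It differed less for Hspa1a, at 11.9 ± 0.275 against 16.9 ± 1.77, a 1.42-fold difference that was close to the 1.48-fold one of Hsp90aa1. By this measure Hspa1a therefore stood nearer to Hsp90aa1 than to its own J-domain partner. The mitochondrial pair lay on the other side, with Hspd1 at 5.23 ± 0.0723 against 3.81 ± 0.439 and Hspe1 at 6.07 ± 0.266 against 3.92 ± 0.512 TPM per 100 TPM of Hspa8. In all, 21 such ratios were compared with a two-sided exact permutation test, and each had p = 0.1 (Benjamini-Hochberg adjusted p = 0.1), the smallest that 3 against 3 libraries allow.

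**Figure D3:**
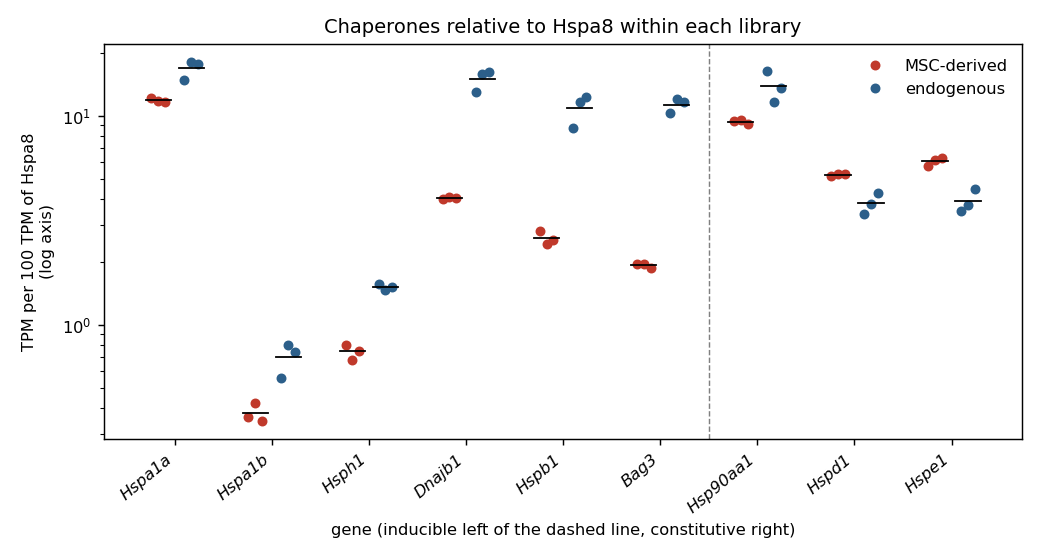
TPM of each of the other 9 chaperones per 100 TPM of Hspa8 within the same library (log axis), for MSC-derived (red) and endogenous (blue) cells, with points for the 3 libraries and black bars for their mean. The largest gap is that of Bag3, 1.93 against 11.3 on average, and the order of the groups turns over for Hspd1 and Hspe1.

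The inducible members also differed in their proportions to each other. Hspa1a made up 55.1 to 55.2% of the TPM of the 6 inducible genes in the MSC-derived libraries and 29.5 to 30.3% in the endogenous ones. The co-chaperones were correspondingly scarcer beside it in MSC-derived cells. Per 100 TPM of Hspa1a there were 33.9 ± 1.08 TPM of Dnajb1 against 88.9 ± 1.90 in endogenous cells (SD, n = 3). Bag3 had 16.2 ± 0.371 against 67.0 ± 1.86 TPM, and Hspb1 had 21.8 ± 1.19 against 64.1 ± 5.09 TPM on the same measure (SD, n = 3). Hsph1 changed less, at 6.27 ± 0.421 against 9.05 ± 1.26 TPM per 100 TPM of Hspa1a. In endogenous cells Dnajb1 RNA was thus nearly as abundant per length as Hspa1a RNA, and in MSC-derived cells it was far below it.

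By level per length, the order of the members changed as well. In the MSC-derived libraries Hspa8 led with 1409 ± 21.2 TPM, followed by Hspa1a with 168 ± 2.32, Hsp90aa1 with 132 ± 4.13, Hspe1 with 85.6 ± 4.84, Hspd1 with 73.7 ± 2.10 and Dnajb1 with 56.9 ± 1.52 TPM (SD, n = 3). The mitochondrial pair thus stood above Dnajb1, Hspb1, Bag3, Hsph1 and Hspa1b. In the endogenous libraries Hspa8, with 2353 ± 263 TPM, was followed by Hspa1a with 395 ± 4.18, Dnajb1 with 351 ± 4.51, Hsp90aa1 with 329.7 ± 93.6, Bag3 with 265 ± 8.40 and Hspb1 with 253 ± 18.6 TPM (SD, n = 3). There Hsp90aa1 lay within its spread of Hspa1a, Dnajb1, Bag3 and Hspb1, so its place among them is not settled. Hspe1 with 91.5 ± 8.21 TPM and Hspd1 with 89.1 ± 5.198 TPM did not differ beyond their spread. The rarest member in both groups was Hspa1b, with 5.33 ± 0.631 and 16.2 ± 1.43 TPM. Hspa8 ranked 72nd of all genes by mean TPM in MSC-derived and 48th in endogenous cells.

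By edgeR, the genes that control the heat shock response were called in both directions, at shares near or below those of all genes tested. Those shares were 31.3% higher and 30.3% lower, with a median log2 fold change of 0.05. Of 6 tested heat shock factors and their regulators, 2 were higher, 1 lower and 3 not called, with a median log2 fold change of 0.08. On log2(TPM + 1), 1 was higher and 3 lower with a median of -0.33, and without endogenous replicate 1, 2 were higher and 3 lower with a median of -0.28. Hsf1, the main heat shock factor, had 863 to 944 counts in the MSC-derived and 776 to 1048 in the endogenous libraries, which overlap, and a log2 fold change of -0.12 with a 95% interval of -0.41 to 0.16 (adjusted p = 0.408). Hsf2 had 604 counts in endogenous replicate 1 but 223 and 192 in the other endogenous libraries and 168 to 197 in the MSC-derived ones, and was not called (log2 fold change -0.95, adjusted p = 0.103). Hsbp1, whose product binds HSF1, rose by 0.29 (adjusted p = 0.0239), and Dedd2 by 1.14 (adjusted p = 0.00027). Ier5, an immediate early gene whose product acts on HSF1, fell by 1.57 on the log2 scale (adjusted p = 9.80e-07). RNA levels do not measure the activity of HSF1.

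Other chaperone families were counted the same way, with the lists chosen by function. Each count, here and in the lists that follow, stands beside the 31.3% higher and 30.3% lower of all genes tested. Among the other small heat shock proteins, 5 of 6 tested were lower and 1 was not called. Cryab, which encodes alpha-B-crystallin, fell more than any member, from 145 ± 0.745 to 11.6 ± 1.66 CPM (SD, n = 3), a log2 fold change of -3.65 (adjusted p = 3.12e-07). Hspb8, the partner of BAG3, fell by 1.55 (adjusted p = 1.53e-05) and Hspb6 by 1.04 on the log2 scale (adjusted p = 0.00348). Hspb1 therefore held a larger place beside Cryab in MSC-derived cells, with 194 ± 25.03 TPM per 100 TPM of Cryab against 75.4 ± 10.3 TPM in endogenous cells (SD, n = 3).

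Of the 9 other HSP70 and HSP110 genes, 2 were higher, 4 lower and 3 not called. Hspa14 rose by 0.78 (adjusted p = 0.000166) and Hspa4, a relative of Hsph1, by 0.44 on the log2 scale (adjusted p = 0.00201). Hspa12a fell by 3.22 (adjusted p = 6.66e-05) and Hspa9, the HSP70 of mitochondria, by 0.62 (adjusted p = 0.00255). Hspd1 thus stood at 131 ± 6.37 TPM per 100 TPM of Hspa9 in MSC-derived and 77.0 ± 15.3 TPM in endogenous cells (SD, n = 3). Of 6 nucleotide exchange factors and BAG proteins, 2 were higher, 1 lower and 3 not called, but 0 were higher and 4 lower both in limma on log2(TPM + 1) and in edgeR with upper quartile scaling. Bag1 had a log2 fold change of -0.32 (adjusted p = 0.0535) and Bag6 of -0.12 (adjusted p = 0.245), Bag4 rose by 0.48 (adjusted p = 0.0286) and Bag5 fell by 0.89 (adjusted p = 0.000215), so that none of those named came near the fall of Bag3. There were 25.5 ± 1.11 TPM of Bag3 per 100 TPM of Bag1 in MSC-derived and 149 ± 28.7 TPM in endogenous cells (SD, n = 3).

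Of 31 other J-domain genes tested, 12 were higher, 5 lower and 14 not called, and the median log2 fold change was 0.38. On log2(TPM + 1) the balance turned over, with 5 higher and 8 lower and a median of -0.06, and without endogenous replicate 1 there were 18 higher and 8 lower. Dnaja1, a J-domain partner of HSPA8, fell by 0.31 (adjusted p = 0.0124), and Dnaja4 fell by 2.31 on the log2 scale (adjusted p = 2.38e-05), about as far as Dnajb1. Per 100 TPM of Dnaja1 there were 56.0 ± 1.47 TPM of Dnajb1 in MSC-derived and 207 ± 32.6 TPM in endogenous cells (SD, n = 3). Of 24 genes of HSP90 and its co-chaperones, 6 were higher, 4 lower and 14 not called. These counts depend on the scaling and on 1 library, with 2 higher and 10 lower on log2(TPM + 1), 9 and 3 with library size only, and 10 and 6 without endogenous replicate 1. Stip1, which links HSP70 to HSP90, had a log2 fold change of -0.12 (adjusted p = 0.247), and Ahsa1, which activates the HSP90 ATPase, rose by 0.43 (adjusted p = 0.0142). In this list Fkbp8 rose by 0.63 (adjusted p = 0.00393), Tomm34 rose by 1.16 (adjusted p = 0.00859) and Cdc37l1 fell by 1.34 on the log2 scale (adjusted p = 0.00434).

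Of 14 genes of the cytosolic chaperonin TRiC and prefoldin, 4 were higher, 1 lower and 9 not called, and of 14 other mitochondrial chaperones and proteases, 3 were higher, 3 lower and 8 not called. For TRiC and prefoldin the counts became 1 higher and 7 lower on log2(TPM + 1), 1 and 2 with upper quartile scaling and 6 and 0 with library size only, and 1 was higher when any single MSC-derived library was left out. For the mitochondrial list they became 1 higher and 5 lower on log2(TPM + 1). With library size only they became 5 and 3, and without endogenous replicate 1 they became 6 and 4. The medians of the TRiC and prefoldin list and the mitochondrial list were -0.00 and 0.12. Like the median of 0.07 for HSP90 and its co-chaperones, they were negative on log2(TPM + 1). The ER chaperones differed from these lists, with 13 of 20 lower, 1 higher and 6 not called and a median log2 fold change of -0.56. Serpinh1, the collagen chaperone HSP47, fell by 3.84 (adjusted p = 2.03e-07) and Hspa5, the HSP70 of the ER, by 1.15 on the log2 scale (adjusted p = 2.98e-05), whereas Sdf2l1 rose by 1.999 (adjusted p = 6.57e-06). Of 20 other genes known to rise on heat shock, 18 of which stand in another list as well, 10 were lower, 2 higher and 8 not called. Ubb, a ubiquitin gene and the most abundant of them by mean TPM, had a log2 fold change of -0.08 (adjusted p = 0.239).

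**Figure D4:**
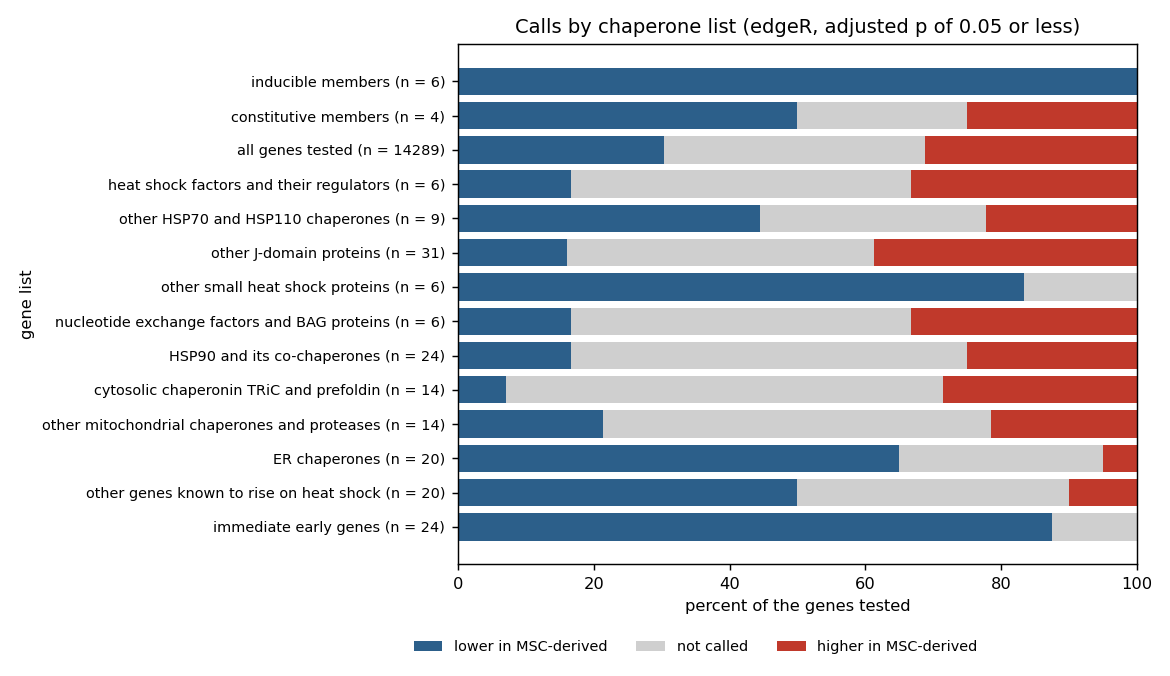
Percent of the genes tested in each list that edgeR called lower (blue), not called (grey) or higher (red) in MSC-derived cells, with the number tested after each name. All 6 inducible members and 5 of 6 other small heat shock proteins were lower, as were 21 of 24 immediate early genes, against 30.3% of all genes tested.

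Immediate early genes, which are switched on within minutes of many stimuli including tissue digestion, moved in the same direction as the inducible members. Of 24 such genes, 21 were lower in the MSC-derived libraries, 0 higher and 3 not called, by edgeR, and the median log2 fold change was -1.15, at summed levels of 7454 to 7571 TPM against 19616 to 21168 TPM. Fos fell by 1.41 (adjusted p = 8.87e-07), Junb by 0.82 (adjusted p = 0.00082) and Egr1 by 2.86 on the log2 scale (adjusted p = 6.88e-08), a fall of the size of that of Bag3, whereas Zfp36 fell by 0.17 (adjusted p = 0.0267). By the study's methods, cells were released from cartilage with collagenase and sorted before the RNA was taken, and the part of handling in the chaperone levels was not tested.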

How the data were processed

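Bulk RNA sequencing of 3 libraries of MSC-derived and 3 of endogenous Tomato+ cells was used. Knee cartilage was digested and sorted for Tomato, RNA was extracted with Trizol and libraries were made with a TruSeq kit from total RNA. SOAPnuke was used by the authors to filter reads, HISAT2 and Bowtie2 to align them and RSEM to quantify genes. The submitters' processing notes name Bowtie2 2.2.5, RSEM 1.2.12 and the build mm9, so no coordinates of the files are given, and promoter coordinates are those of RefSeq on GRCm38.p6. The authors deposited an expected count per gene and library, as estimated by RSEM and not normalized. The authors' deposited FPKM are scaled to transcript length and depth, and their deposited TPM add up to 1000000 a library. FPKM added up to 808701 to 813572 in MSC-derived and 504768 to 573603 in endogenous libraries. A further 6 deposited columns of a normalized signal and 8 of the authors' group means were left aside, and 0 columns stayed unmapped.

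Rounding the expected counts to whole numbers changed 20.6% of them. They were tested over all genes with edgeR 4.0.16 in R 4.3.3 (TMM, filterByExpr, glmQLFit, glmQLFTest, no covariates), with p-values adjusted by Benjamini-Hochberg over all 14289 genes that passed the filter, and called at 0.05. The standard error is the log2 fold change divided by the square root of the F statistic. The step was tested on simulated data first. Fold values set beside CPM are ratios of mean CPM. Shared transcript stretches were counted as 100-base windows on both strands of the GENCODE mouse transcripts. Alternatives were DESeq2 1.42.0, other normalizations and filters, a replicate block, leaving out each library, limma 3.58.1 on log2(FPKM + 1), log2(FPKM + 0.1) and log2(TPM + 1), a threshold of 0.001, Hsp90aa1 counted as inducible, and Hspa1a and Hspa1b summed. The members and gene lists were chosen with earlier results of these data known. Named genes are the members, 15 genes named outright and, per list, the 2 with the highest mean TPM and the called genes with the largest and smallest log2 fold change among non-overlapping genes averaging a log2 CPM of 1 or more, as well as the 3 genes nearest in pattern to Hspa1a and to Hspa8. The values of 1 gene that this rule names are not reported here. Figures were drawn with matplotlib 3.10.9.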

Additional observations from a re-analysis of the deposited data

How the results depend on the processing

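The 8 members called lower became 6 to 9 over the 18 alternatives, and the 6 inducible ones were lower in all 17 computed for single members. The count of 1 member higher, which is Hspe1, became 0 with DESeq2 size factors, upper quartile scaling, TMM without the 50 genes with the most counts, log2(TPM + 1) and a threshold of 0.001, and 2 with library size only, log2(FPKM + 1) and log2(FPKM + 0.1). It was 0 to 1 over the libraries left out in turn. On log2(TPM + 1), Hspd1 turned to -0.27 and Hspe1 to -0.094. The inducible median of -1.75 became -1.63 with library size only, -1.58 and -1.63 on log2(FPKM + 1) and log2(FPKM + 0.1), -2.14 on log2(TPM + 1), -1.31 with Hsp90aa1 counted as inducible and -2.19 with Hspa1a and Hspa1b summed. The constitutive median of -0.06 became -0.15 with upper quartile scaling, 0.05 with library size only, 0.055 and 0.057 on log2(FPKM + 1) and log2(FPKM + 0.1), -0.50 on log2(TPM + 1) and 0.17 without Hsp90aa1. Leaving out a library gave -1.83 to -1.73 and -0.13 to -0.03 for these medians. Each TPM is the FPKM divided by the FPKM sum of its library, which was 808701 to 813572 in MSC-derived and 504768 to 573603 in endogenous libraries. The members therefore stood lower on log2(TPM + 1) than on log2(FPKM + 1) by construction. Regrouping or summing members likewise changes the lists by construction, and the cause of the other shifts was not tested. Over all genes, 4468 were higher and 4333 lower, which became 2134 and 2380 at a threshold of 0.001 and 3672 to 5563 and 3761 to 5686 without single libraries. The higher share of the calls was 50.8%, but 34.4% on log2(TPM + 1). With the replicate block, 0 members were higher (Hspe1 0.34, adjusted p = 0.0699) and no other member changed its call. Deviations from the group mean of log2 CPM, over all genes tested, correlated at 0.00221 to 0.0178 between same-numbered libraries. The numbers were therefore not taken to pair the samples, and by this measure endogenous replicate 2 did not correlate best with its own number. Depth limits Hspa1b most among the members, at 231 to 629 counts a library.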

Other observations

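Some chaperone genes outside the members rose in the MSC-derived cells by more than any member rose. Dnajb13, a J-domain gene known from sperm and cilia, had 418 to 536 counts in the MSC-derived and 0 to 10 counts in the endogenous libraries (adjusted p = 5.37e-05 by edgeR). Dnajc15, a J-domain protein of the inner mitochondrial membrane, had 96.6 ± 3.06 against 18.5 ± 1.77 CPM (SD, n = 3), a log2 fold change of 2.38 (adjusted p = 1.05e-06). In the smaller lists, the prefoldin subunits Pfdn5 rose by 0.46 (adjusted p = 0.0269) and Pfdn6 by 0.99 in log2 units (adjusted p = 0.000658) and Cct5 rose by 0.22 (adjusted p = 0.0305), whereas Cct6a fell by 0.26 (adjusted p = 0.0207). Among mitochondrial genes, Hscb rose by 1.07 (adjusted p = 0.0466), Yme1l1 fell by 0.79 (adjusted p = 0.0222) and Clpp had a log2 fold change of 0.62 (adjusted p = 0.089).

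By the distance between centred log2 CPM over the 6 libraries, the genes with the pattern nearest to Hspa1a were Kdm6b at 0.0521, Herpud1 at 0.0655 and Rbpj at 0.0874. Those nearest to Hspa8 were Gspt1 at 0.0497, Hsp90ab1 at 0.0515 and Ube2e3 at 0.0658. Prrx1 itself had 16.2 ± 1.22 CPM in the MSC-derived and 71.9 ± 15.5 CPM in the endogenous libraries (SD, n = 3), a log2 fold change of -2.15 (adjusted p = 2.31e-05). Of the other marker lists, all 9 osteoblast markers were lower in the MSC-derived libraries, with sums of 730 to 761 against 60747 to 83917 TPM. All 9 fibroblast and stromal markers were lower as well, with sums of 2105 to 2134 against 35287 to 45034 TPM, and Col1a1 counts in both lists. Higher in the MSC-derived libraries were 6 of 8 B cell, 6 of 8 T and NK cell and 5 of 8 endothelial markers, and of 4 adipocyte markers tested 1 was higher and 3 lower. Of 4 skeletal muscle markers tested, 0 were called by edgeR.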
